A study of Solanum pimpinellifolium with 6 samples.

Results

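The C2H2 zinc finger genes of tomato were followed in young fruits of an RNAi line and of its sibling, together with SlZFP2 (Solyc07g053570), the zinc finger gene that the RNAi was aimed at. Members were the rows of the deposited table whose gene description contains the word C2H2. SlZFP2 is 1 of them. There were 125 such genes among the 34723 genes with values.

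RNA came from fruits collected 2 days post anthesis from hand-pollinated flowers of Solanum pimpinellifolium, a wild currant tomato, strain LA1589. The first group was 3 libraries labelled RNAi line 207, which is transgenic, and the second was 3 libraries labelled nontransgenic sibling, with the genotype given as wild type. The extraction protocol names shoot tips and not fruits, and the sample labels are followed here. Plants of both groups were 2 months old by their labels, and all were grown in a phytotron. Line 207 is a single transgenic line, chosen by the submitters because its fruit set and its synthesis of abscisic acid (ABA) were defective. The promoter that drives the silencing construct is not given in the sources used here.

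In a C2H2 zinc finger, a pair of cysteines and a pair of histidines hold a zinc ion, and the folded loop reads a short stretch of DNA or, in some proteins, binds RNA. Many plant proteins of this family are short transcription factors, and a number of them carry a repression motif that recruits co-repressors of the TOPLESS kind. They are known from stress responses, from leaf hairs and from the shaping of flowers and fruits. The series title gives SlZFP2 as a repressor of ABA synthesis and of ripening. The comparison asks which family members differed between the genotypes. No sequence of a member was used here.

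Values are FPKM, fragments scaled to gene length and library depth. A gene was tested where at least 3 of the 6 libraries held 1 FPKM or more. Differences were tested with limma on log2(FPKM + 1) over 15766 genes, and a gene was called at a Benjamini-Hochberg adjusted p of at most 0.05. Depth relative to 1 sibling library was 0.384 to 0.776 under the line 207 label and 0.807 to 1 under the sibling label. Pairwise correlations of libraries were 0.779 to 0.816 within the line 207 label, 0.829 to 0.86 within the sibling label and 0.694 to 0.755 between the labels. All 4 carpel and fruit marker genes were tested and 1 was higher, with summed levels of 400 to 490 FPKM under the line 207 label and 290 to 375 under the sibling label. Photosynthesis genes, which are not confined to leaves, were listed as leaf markers by words of the description. Of 32 tested ones, small subunits of Rubisco and chlorophyll a-b binding proteins, 28 were lower and 0 higher (median log2 fold change -2.69). Their summed levels were 4710 to 6780 FPKM under the line 207 label and 21500 to 32400 under the sibling label, without overlap. In such bulk samples, fewer cells of a type and less RNA per cell cannot be told apart. Of the 2 shoot meristem markers 1 was tested and not called. Sums over both were 1.99 to 5.14 FPKM under the line 207 label and 2.12 to 5.84 under the sibling label. The untested one (Solyc02g083950) was at 0, 2.02 and 0 FPKM under the line 207 label and at 0 in every sibling library. The pollen marker was at 6.71 to 8.24 FPKM under the line 207 label and at 7.58 to 39.4 under the sibling label (limma adjusted p = 0.189). Among 24 tested genes listed by seed words of the description, 2 were higher, an oleosin (Solyc06g060840) and a legumin (Solyc11g073210). The 3 lower ones are described as a lipid-transfer protein, a PVR3-like protein and a protease inhibitor/seed storage/lipid transfer family protein. Sums over this mixed list were 454 to 579 FPKM under the line 207 label and 606 to 837 under the sibling label. The part of these tissues and of depth in the results below was not tested.

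SlZFP2 itself did not fall by label. It was at 10.3, 9.03 and 7.45 FPKM under the line 207 label, against 2.89, 3.05 and 0.00147 FPKM under the sibling label. All 3 libraries labelled line 207 lay above all 3 labelled siblings, where silencing would lower the gene. The table does not separate reads of the gene from reads of the silencing construct, and the reason for this direction was not tested. On the log2 scale the difference of 1.97 ± 0.66 (SE) missed the threshold (limma adjusted p = 0.112). It was 1.31 without sibling replicate 3, where the gene was near 0. The authors' deposited table marks SlZFP2 as not tested. Groups are named by label throughout, and every direction is one between labels.

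**Figure D1:**
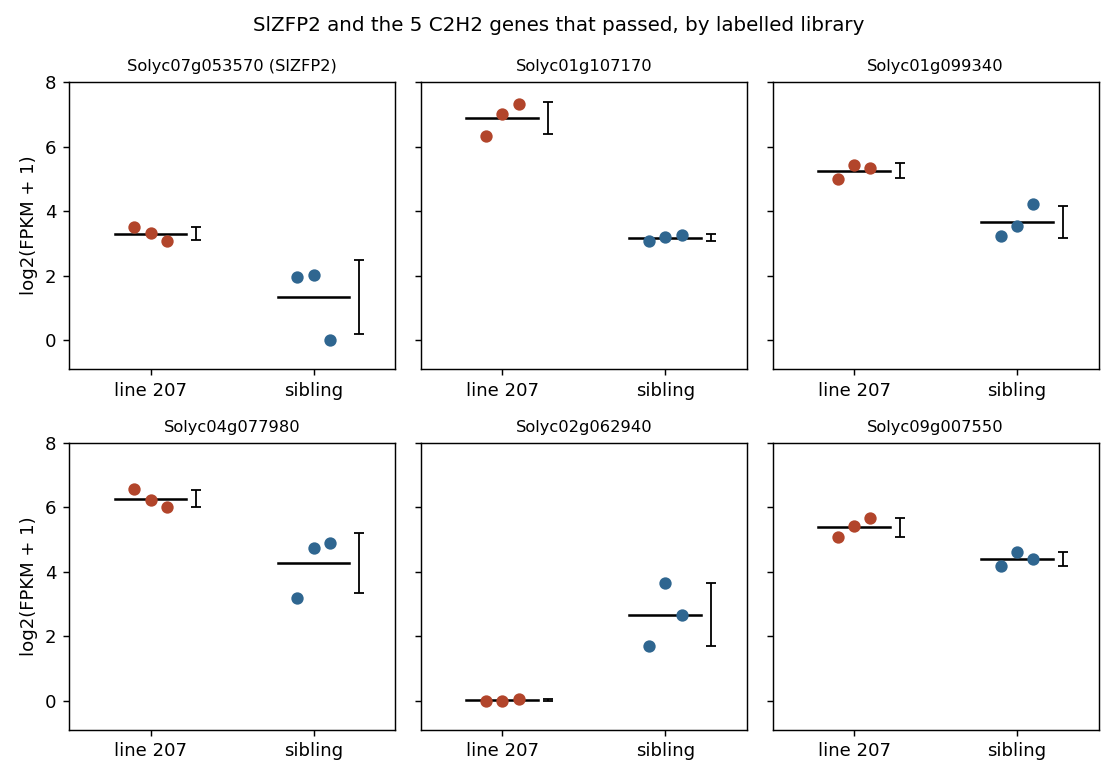
Level of SlZFP2 and of the 5 C2H2 genes that passed the test, as log2(FPKM + 1), in the 3 libraries labelled line 207 (left in each panel) and the 3 labelled sibling. Points are libraries, horizontal lines are means and the vertical bars beside them are ± 1 SD, and the groups do not overlap in any of the 6 panels.

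Solyc01g107170 stood 15.2-fold higher under the line 207 label, Solyc04g077980, Solyc01g099340 and Solyc09g007550 were 2.04-fold to 3.71-fold higher, and Solyc02g062940 was lower. Of the 60 members tested, 5 were called between the labels, 4 with higher and 1 with lower levels in the line 207 group. That is 8.33%, where 10.1% of all tested genes were called. By direction, 6.67% of the tested members were higher against 5.01% of all tested genes, and 1.67% were lower against 5.04%. The members' median log2 fold change was 0.07, and that of all tested genes -0.09. These shares are near those of all genes, and the description below is of single members. Without the filter on levels 86 members entered the test and 3 were called, where 5.13% of all genes so tested were. Only 1 of the 60, Solyc02g062940, reached the filter through the libraries of a single group.

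Solyc01g107170 differed the most of all tested members. Described as a zinc finger protein, it has its best match in a potato protein. It was at 80.2, 129.8 and 158 FPKM under the line 207 label, against 7.39, 8.18 and 8.67 FPKM under the sibling label. The lowest library labelled line 207 was far above the highest sibling, and the siblings lay close together. Means were 123 ± 39.4 FPKM under the line 207 label and 8.08 ± 0.649 FPKM under the sibling label (SD, n = 3 each), a 15.2-fold difference. The log2 fold change was 3.72 ± 0.28 (SE, limma adjusted p = 0.00168). It ranked second of the 125 members by mean level under the line 207 label, and position 33 under the sibling label. It was the 1 called member that passed in each of the 6 fits with a library left out, with log2 fold changes of 3.51 to 3.99 and adjusted p no higher than 0.0154. The authors' deposited table gives it a q of 0.000439.

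Solyc04g077980, a zinc-finger protein whose best match is from petunia, was also higher. Its values were 93.7, 74.4 and 64.3 FPKM under the line 207 label, against 8.12, 25.8 and 28.7 FPKM under the sibling label. The means of 77.5 ± 14.9 FPKM under the line 207 label and 20.9 ± 11.2 FPKM under the sibling label differed 3.71-fold (SD, n = 3 each; log2 fold change 2.00 ± 0.46 (SE), limma adjusted p = 0.0395). Sibling replicate 1 was the low one of its group, and without it the log2 fold change was 1.46. The call held without that library and was lost without any other (adjusted p up to 0.114), with a pseudocount of 0.1 (adjusted p = 0.052) and without the filter (adjusted p = 0.102). The authors' deposited table has a q of 0.000439 for it. Solyc12g088390, which has the same petunia match, was scattered in both groups. It was at 5.09, 0 and 0 FPKM under the line 207 label and at 0, 7.26 and 4.59 FPKM under the sibling label (limma adjusted p = 0.618).

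Solyc01g099340, described as a zinc finger protein after an apple match, was at 31.3, 42.1 and 39.5 FPKM under the line 207 label and at 8.46, 10.7 and 17.5 FPKM under the sibling label. Every value of the first group was above every value of the second. The difference of means was 3.08-fold, 37.6 ± 5.64 FPKM under the line 207 label against 12.2 ± 4.7 FPKM under the sibling label (SD, n = 3 each; log2 fold change 1.59 ± 0.32 (SE), limma adjusted p = 0.0248). It lost its call without each library other than sibling replicate 3 (adjusted p up to 0.0839). The q in the authors' deposited table is 0.000439.

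Solyc09g007550, described as a zinc finger family protein, differed by the smallest amount of the called genes. It was at 32.9, 41.8 and 49.6 FPKM under the line 207 label and at 17.3, 23.5 and 20.2 FPKM under the sibling label. Means were 41.4 ± 8.35 FPKM under the line 207 label and 20.3 ± 3.12 FPKM under the sibling label, 2.04-fold apart (SD, n = 3 each; log2 fold change 0.98 ± 0.24 (SE), limma adjusted p = 0.0476). No fit with a library left out kept the call (adjusted p up to 0.133). It was also lost with median scaling (adjusted p = 0.0532), with upper quartile scaling (adjusted p = 0.0511) and without the filter (adjusted p = 0.0626). The authors' deposited table calls it, with a q of 0.0275.

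The single member called lower was Solyc02g062940, a zinc finger protein matched to Arabidopsis thaliana. It passed the filter through the sibling libraries alone, so a difference was built into its being tested, and its call is given as a description. Among the 59 tested members that reached 1 FPKM in both groups, 4 were called, all higher. It was at 0.00117, 0.000197 and 0.0384 FPKM under the line 207 label, against 2.26, 11.7 and 5.27 FPKM under the sibling label. All libraries labelled line 207 were near 0, so no fold in linear terms is given, and the log2 fold change of -2.66 ± 0.62 (SE, limma adjusted p = 0.0408) depends on the 1 added before the logarithm. With 5 added it was -1.10 and did not pass (adjusted p = 0.0687), nor did it pass without the filter (adjusted p = 0.0727) or when any library other than sibling replicate 1 was left out (adjusted p up to 0.106). The authors' deposited table did not test this gene. Its levels are low and the libraries labelled line 207 had less depth, and the part of depth was not tested.

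**Figure D2:**
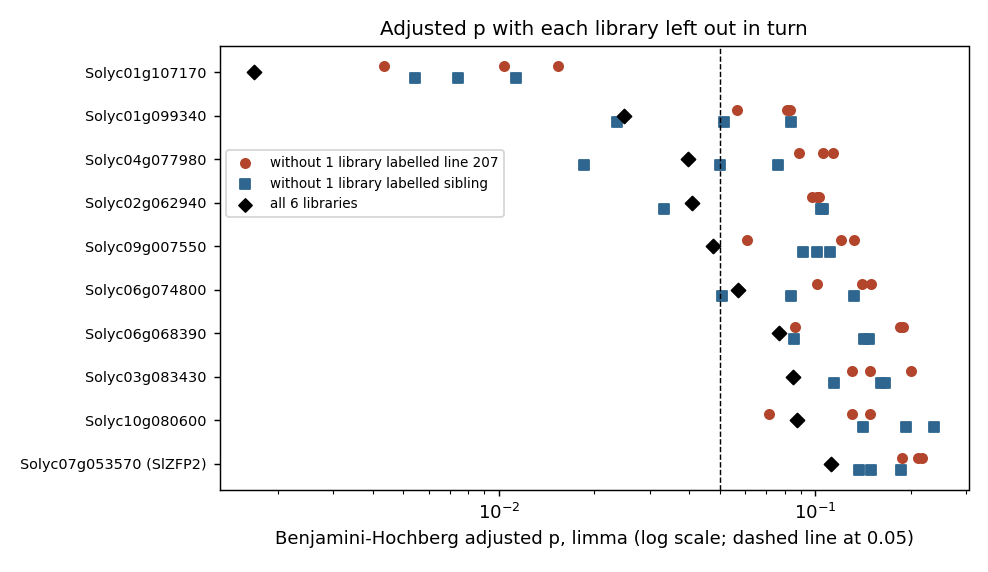
Benjamini-Hochberg adjusted p from limma (log scale) for the 5 called C2H2 genes, the 4 that lay between 0.05 and 0.1 and SlZFP2, with all 6 libraries and with each library left out in turn. Solyc01g107170 alone stays left of the dashed line at 0.05 in all of these fits, and SlZFP2 lies right of it in each.

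A further 4 members lay between adjusted p of 0.05 and 0.1, and in all of them the labelled groups did not overlap. Solyc06g074800, a Cys2/His2 transcription factor matched to a protein of the white campion Silene latifolia, was at 23.4, 32.6 and 29.6 FPKM under the line 207 label and at 5.31, 10.1 and 14.9 FPKM under the sibling label (log2 fold change 1.5 ± 0.39 (SE), limma adjusted p = 0.0571). It passed with 5 added before the logarithm (adjusted p = 0.0462) and when genes averaging less than 10 FPKM were dropped (adjusted p = 0.0401), and the authors' deposited q is 0.00622. Solyc06g068390, another gene described as a zinc finger family protein, had 53.9, 47.2 and 28.9 FPKM under the line 207 label, against 22.3, 19.1 and 9.15 FPKM under the sibling label (adjusted p = 0.0768 in limma). Solyc10g080600, a zinc finger-like protein, went the other way by label, at 4.51, 0 and 2.16 FPKM under the line 207 label against 8.36, 17.1 and 12.2 FPKM under the sibling label (limma adjusted p = 0.0877). The fourth, the splicing factor gene Solyc03g083430, is described with its role below.

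Over all tested members, the labelled groups did not overlap for 16 of 60, 11 with higher and 5 with lower values under the line 207 label. That is 26.7%, where the groups did not overlap for 33.2% of all tested genes. By direction, the shares were 18.3% higher against 15.6% of all tested genes, and 8.33% lower against 17.6%. Beside those above, the higher ones included Solyc01g090840, at 3.96, 4.57 and 3.81 FPKM under the line 207 label against 2.25, 0.934 and 1.70 FPKM under the sibling label (limma adjusted p = 0.246). Solyc09g074780 was at 1.32, 3.09 and 2.52 FPKM under the line 207 label and at 0, 1.24 and 0.575 FPKM under the sibling label (limma adjusted p = 0.263). Among those with lower values, Solyc01g005060 was at 5.29, 1.37 and 6.82 FPKM under the line 207 label, against a tight 13.3, 13.5 and 13.1 FPKM under the sibling label (limma adjusted p = 0.118). The sizes of all differences spanned log2 fold changes of -2.66 to 3.72. Those of at least 1 in either direction made up 33.3% of the tested members and 31.9% of all tested genes.

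**Figure D3:**
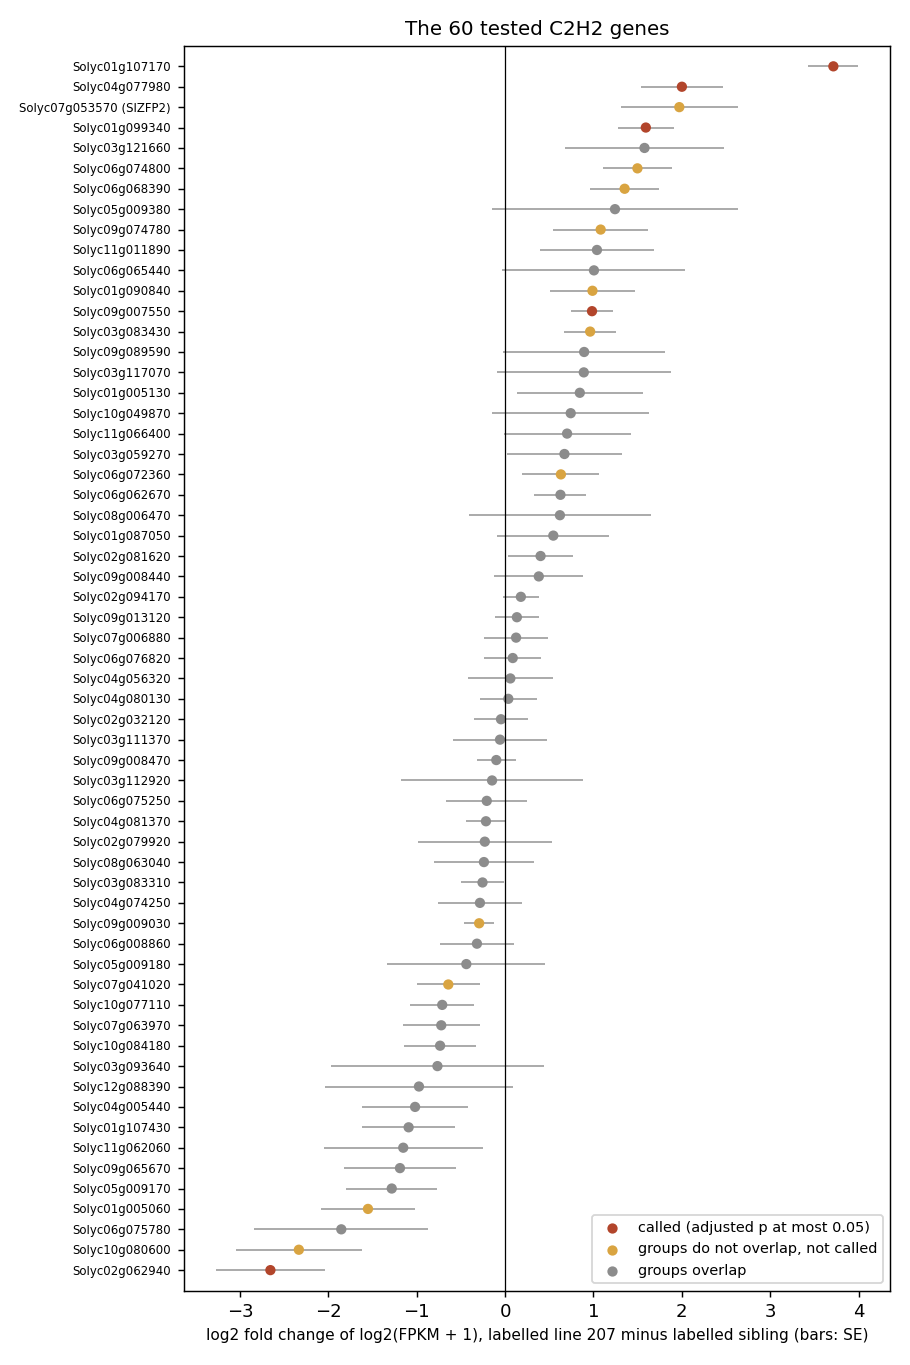
Log2 fold change on the log2(FPKM + 1) scale, labelled line 207 minus labelled sibling, with its SE, for the 60 tested C2H2 genes in order of size. The 5 called genes stand in red, the genes whose groups do not overlap without a call in yellow, and 32 of the 60 lie above 0 and 28 below.

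The authors' deposited table tested 33 of the members and called 7. The mean was higher under the line 207 label for 6 of them and lower for 1. That is 21.2% of the members it tested, against 28.4% of all genes it tested. It called 4 of the 5 members that limma called, and did not test Solyc02g062940. Its other 3 calls were Solyc06g074800, Solyc05g009170 (q = 0.026) and Solyc06g062670 (q = 0.0497). Solyc05g009170, named after maize zinc finger protein 6, was at 7.93, 15.1 and 19.6 FPKM under the line 207 label and at 16.7, 55.9 and 41.3 FPKM under the sibling label. Solyc06g062670, of the same description as Solyc09g007550, had 25.0, 35.4 and 32.8 FPKM under the line 207 label and 28.1, 17.0 and 15.6 FPKM under the sibling label. The labelled groups overlapped for both, and limma gave adjusted p of 0.169 and 0.235.

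Among members with a described role, 2 chromatin genes, 3 RNA and splicing genes and 1 ubiquitin ligase gene were tested, and none was called. Over all tested genes 10.1% were called, so with so few genes this is not read as a trait of these roles. The highest of all members was a histone deacetylase 2a-like gene (Solyc09g009030), of a plant-specific class of histone deacetylases. Its values were 149.5, 152 and 124 FPKM under the line 207 label, against 153, 169.6 and 200.4 FPKM under the sibling label. Every library labelled line 207 lay below every sibling, by a small margin (means of 142 ± 15.3 FPKM under the line 207 label and 174 ± 24 FPKM under the sibling label, SD, n = 3 each; log2 fold change -0.29 ± 0.17 (SE), limma adjusted p = 0.332). It ranked first among the members in both groups and 791 among all genes by mean level. A second gene of that name, Solyc10g085560, was at 4.88 FPKM or less and was not tested. The polycomb gene EMBRYONIC FLOWER 2 (Solyc03g093640), which in Arabidopsis belongs to a complex that methylates histones and holds back flowering, was uneven. It was at 0.000502, 27.1 and 19.8 FPKM under the line 207 label and at 10.8, 16.5 and 12.9 FPKM under the sibling label. Its log2 fold change was -0.76 (limma adjusted p = 0.734), and without line 207 replicate 1, the library near 0, it was 0.77 (adjusted p = 0.225).

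All 3 splicing genes carry the matrin form of the C2H2 domain. Splicing factor 3a subunit 3 (Solyc03g083430), a part of the U2 particle that binds near the branch point of introns, was at 43.2, 28.7 and 30.5 FPKM under the line 207 label and at 12.3, 21.4 and 17.7 FPKM under the sibling label. The groups did not overlap, and the 1.99-fold difference did not pass (log2 fold change 0.96 ± 0.29 (SE), limma adjusted p = 0.0848). Subunit 2 of the same factor (Solyc09g008470) was at 51.9, 37.2 and 45.6 FPKM under the line 207 label and at 58.0, 47.0 and 39.8 FPKM under the sibling label (limma adjusted p = 0.817). The U1 particle gene for protein C (Solyc06g008860) was at 24.5, 12.8 and 27.2 FPKM under the line 207 label and at 15.2, 34.5 and 32.4 FPKM under the sibling label (limma adjusted p = 0.68). For both of these the groups overlapped. The ligase gene named after Hakai (Solyc09g013120), an enzyme that in animals attaches ubiquitin to a cell adhesion protein, averaged 27.2 ± 7.57 FPKM under the line 207 label and 24.1 ± 0.642 FPKM under the sibling label (SD, n = 3 each; limma adjusted p = 0.777). The gene for a nucleolar protein with a LYAR-type finger (Solyc07g041020) was at 10.3, 14.7 and 16.6 FPKM under the line 207 label, below the 17.5, 33.6 and 17.4 FPKM under the sibling label (limma adjusted p = 0.311).

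Other well expressed members were not called. Solyc02g081620, named zinc finger protein 207 after a protein that helps to build the spindle in animals, averaged 45.4 ± 5.97 FPKM under the line 207 label and 36.8 ± 16.6 FPKM under the sibling label (SD, n = 3 each; limma adjusted p = 0.549). Solyc02g094170, a zinc finger gene with a maize match, averaged 37.7 ± 5.3 FPKM under the line 207 label and 33.2 ± 4.21 FPKM under the sibling label (limma adjusted p = 0.635). Solyc07g006880, described as zinc-finger protein 1, averaged 40.0 ± 19.2 FPKM under the line 207 label and 35.0 ± 10.03 FPKM under the sibling label (limma adjusted p = 0.864). Of the 4 members described as transcription factor alone, all were tested and none was called, where 10.1% of all tested genes were. The highest of them were Solyc06g076820, with means of 31.6 FPKM under the line 207 label and 28.6 FPKM under the sibling label, and Solyc04g081370, with means of 24.3 FPKM under the line 207 label and 28.4 FPKM under the sibling label (limma adjusted p = 0.894 and 0.604). The third, Solyc07g063970, averaged 6.96 FPKM under the line 207 label and 11.5 FPKM under the sibling label (limma adjusted p = 0.355).

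Genes of some shared names are described next, and these name classes were picked after their values were seen. Over all genes, 35.6% were listed at 0 in every library, and 10.1% of tested genes were called. The classes are small, and no trait of a name is read from them. Of 7 genes named after RAMOSA1, a C2H2 factor that controls branching of the maize inflorescence, 6 were listed at 0 in every library. The seventh, Solyc09g089590, was at 0, 5.30 and 3.29 FPKM under the line 207 label and at 0, 3.21 and 0 FPKM under the sibling label. Both genes named after SUPERMAN, which in Arabidopsis limits the number of stamens, were listed at 0 throughout, as was Solyc10g078970, the tomato Hair gene of leaf hair formation. Among 7 genes of the class named C2H2L, 3 were tested and none was called. Solyc10g084180 was at 6.32, 9.93 and 6.55 FPKM under the line 207 label and at 8.51, 18.1 and 14.3 FPKM under the sibling label (limma adjusted p = 0.31). Solyc06g075250 averaged 10.6 ± 6.85 FPKM under the line 207 label and 11.02 ± 0.9 FPKM under the sibling label (SD, n = 3 each; limma adjusted p = 0.817). Solyc03g112920 ranged from 0 to 12.7 FPKM under the line 207 label and from 2.39 to 9.07 FPKM under the sibling label (limma adjusted p = 0.945). Solyc02g085580 was at 0.00997 FPKM or less under the line 207 label and at 0.0189, 8.0 and 8.53 FPKM under the sibling label, and was not tested. Of 10 genes named Cys2/His2 transcription factor, 5 were tested and none was called.

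**Figure D4:**
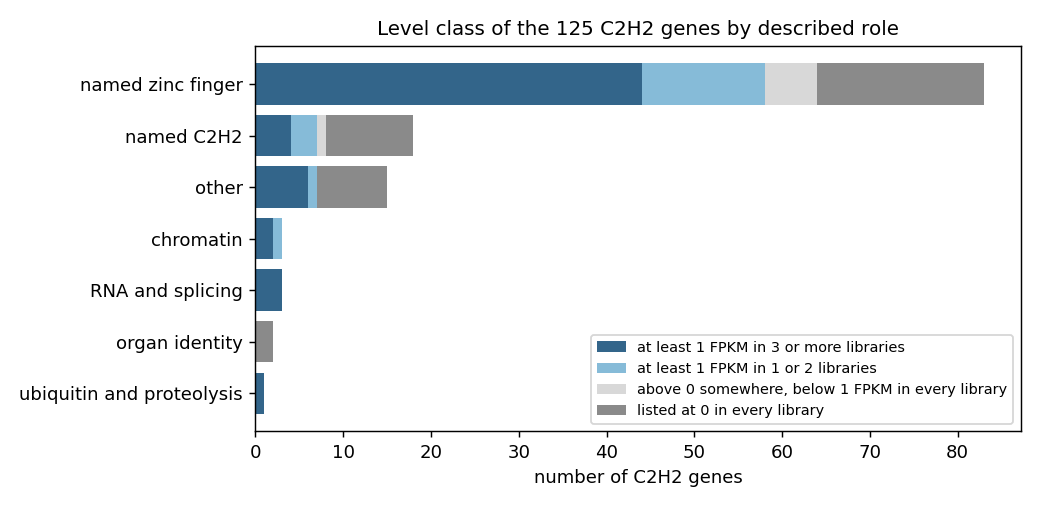
Number of C2H2 genes in each level class, from 1 FPKM or more in at least 3 libraries (dark blue) to 0 in every library (dark grey), by the role that words of the description gave. The zinc finger group holds 83 of the 125 genes, 44 of them tested, and the RNA and splicing group has its 3 genes tested.

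Of the 125 members, 39 were listed at 0 in every library, or 31.2%, where 35.6% of all genes were. Another 7 were above 0 in at least 1 library and below 1 FPKM in every library, 19 reached 1 FPKM in 1 or 2 libraries, and 60 were tested. Means over all libraries were under 1 FPKM for 56 members, from 1 to 10 for 40, from 10 to 50 for 27 and at least 50 for 2. Per library, 58, 51 and 58 members were at 1 FPKM or more under the line 207 label and 54, 59 and 60 under the sibling label. Values of exactly 0 numbered 59, 61 and 56 under the line 207 label and 54, 51 and 50 under the sibling label. Of the 65 untested members, the labelled groups did not overlap in 2, Solyc02g085580 above and Solyc03g115450, which was listed at 0 under the line 207 label and at 0.697, 0.893 and 0.823 FPKM under the sibling label. Where the filter was left out, Solyc03g115450 was the 1 member called lower, at levels below 1 FPKM. Its limma adjusted p was 0.0174, with a log2 fold change of -0.85 ± 0.08 (SE). Among the members, values of exactly 0 were more frequent in each library labelled line 207 than in any sibling. Zeros per library were not counted over all genes, so this is not read as a trait of the family. Each library labelled line 207 also had less depth than any sibling, so label and depth cannot be told apart here. The part of depth was not tested.

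Spread between libraries of a group was sizeable for low members. In 10 of the 60 tested members 1 library labelled line 207 was at 0.1 FPKM or less while another was at 5 or more, and in 5 members this held among the labelled siblings. This is 16.7% of the tested members and 14% of all tested genes under the line 207 label, and 8.33% of the tested members and 8.8% of all tested genes under the sibling label. Solyc05g009380, described as an EPF-type factor, did so in both groups, at 15.3, 0.0677 and 9.49 FPKM under the line 207 label and at 0.000726, 12.3 and 0.0289 FPKM under the sibling label. The median SD of log2(FPKM + 1) among tested members was 0.55 under the line 207 label and 0.576 under the sibling label, where it was 0.467 and 0.45 over all tested genes.

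The description of most members names the protein of another species that matched best. A best match in common joined 77 members in 28 groups, 15 of which held 2 or more tested genes. A called gene stood in 4 of the groups, and 0 groups held more than 1. SlZFP2 has its best match, a protein of Arabidopsis lyrata, in common with Solyc09g065670. That gene was at 0, 1.18 and 1.5 FPKM under the line 207 label and at 5.92, 1.46 and 2.78 FPKM under the sibling label, with a log2 fold change of -1.19 ± 0.63 (SE, limma adjusted p = 0.293). SlZFP2 was higher in every library labelled line 207 than in any sibling, and the groups overlapped for Solyc09g065670.

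The 4 genes with the apple match of Solyc01g099340 were all tested. Solyc09g074780 and Solyc06g072360 had higher values under the line 207 label and Solyc01g005060 had lower ones, each without overlap and without a call. Solyc06g072360 was at 4.86, 8.95 and 7.81 FPKM under the line 207 label and at 3.69, 4.63 and 4.23 FPKM under the sibling label (limma adjusted p = 0.418). Around Solyc02g062940, the A. thaliana match joined 3 more tested genes. Solyc03g121660 was at 9.65, 15.1 and 8.22 FPKM under the line 207 label and at 0.00596, 11.3 and 3.80 FPKM under the sibling label (limma adjusted p = 0.329). Solyc04g080130 averaged 16.5 ± 3.79 FPKM under the line 207 label and 16.2 ± 4.19 FPKM under the sibling label (SD, n = 3 each; adjusted p = 0.956 in limma). Solyc08g063040 averaged 13.5 ± 11.2 FPKM under the line 207 label and 13.7 ± 4.42 FPKM under the sibling label (SD, n = 3 each; limma adjusted p = 0.829). Solyc09g007550 shares its match with Solyc06g062670, given above, and with Solyc11g069240, which was listed at 0 under the line 207 label and at 6.09, 0.966 and 0 FPKM under the sibling label. FPKM values of near-identical copies can take reads from each other, and the split between such copies is less certain than their sum. Whether genes with a shared match are so alike was not tested, since no sequence was used.

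**Figure D5:**
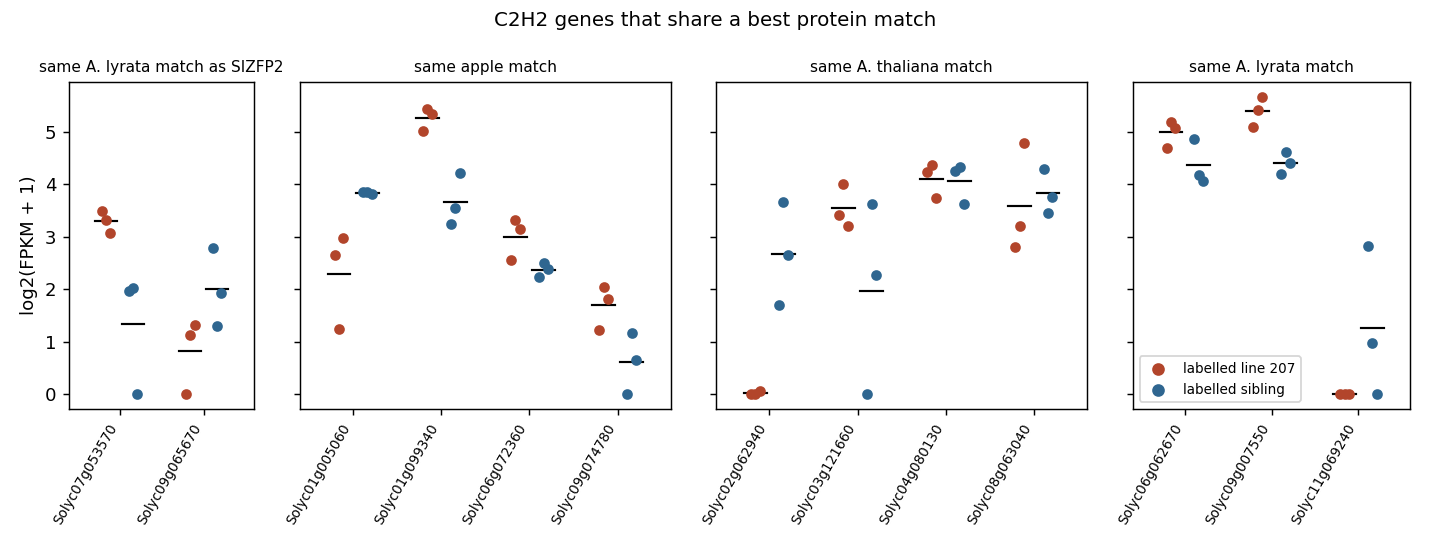
Level as log2(FPKM + 1) of C2H2 genes that share a best protein match, in the libraries labelled line 207 (left of each pair) and labelled sibling, with points for libraries and lines for means. The pair on the left is SlZFP2, higher under the line 207 label, and Solyc09g065670, whose groups overlap.

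Co-repressor genes, on which C2H2 repressors with the repression motif rely, were listed by the words topless, SIN3, histone deacetylase and SAP18 in the description. Of 38 such genes 13 were tested. By limma 0 were called, where 10.1% of all tested genes were. An unadjusted limma p under 0.05 was held by 0, against 26.2% of all tested genes. The authors' deposited table did not test every one of the 13, leaving out Solyc03g117400 and Solyc01g009110 among others. Of those it tested it called 0, against 28.4% of all genes it tested. With so few genes, 0 calls are not read as a trait of the list. The list holds both histone deacetylase 2a-like members, and its median log2 fold change was -0.27. It also takes in other histone deacetylases, NAD-dependent deacetylases and a ubiquitin carboxyl-terminal hydrolase matched by these words. Summed levels were 340 to 421 FPKM under the line 207 label and 428 to 473 FPKM under the sibling label. A Topless-related protein 1 gene (Solyc03g117380) was at 38.0, 45.4 and 18.7 FPKM under the line 207 label and at 40.8, 17.7 and 0 FPKM under the sibling label (limma adjusted p = 0.427). The gene for SAP18 (Solyc05g047690), a subunit of a histone deacetylase complex, averaged 56.4 ± 16.9 FPKM under the line 207 label and 70.8 ± 4.82 FPKM under the sibling label (SD, n = 3 each; limma adjusted p = 0.386).

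The list of genes tied to SlZFP2 through ABA synthesis and ripening had 5 members, all tested by limma, and 1 was called, higher. Over all tested genes 5.01% were called higher. The authors' deposited table did not test SITIENS, FLACCA and AO1. It tested NCED1 (q = 0.0785) and COLORLESS NON-RIPENING (q = 0.677) and called neither. The list follows what is known of the SlZFP2 study, which used these samples, and is not independent evidence. The called gene was NCED1 (Solyc07g056570), of the rate-limiting step of ABA synthesis, at 97.0, 113 and 180.9 FPKM under the line 207 label and at 5.78, 7.75 and 11.3 FPKM under the sibling label (limma adjusted p = 0.00226). COLORLESS NON-RIPENING (Solyc02g077920), a squamosa promoter binding-like factor that ripening requires, was at 16.1, 22.4 and 4.65 FPKM under the line 207 label and at 8.18, 13.6 and 10.7 FPKM under the sibling label (limma adjusted p = 0.878). The groups were apart for NCED1 and overlapped for COLORLESS NON-RIPENING. AO1 (Solyc11g071620), an aldehyde oxidase gene, was at 1.42, 3.92 and 4.12 FPKM under the line 207 label and at 0.088 FPKM or less under the sibling label. Its groups were also apart, and it was not called (limma adjusted p = 0.059). SITIENS and FLACCA were not called (limma adjusted p = 0.71 and 0.72).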

How the data were processed

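RNA-seq was measured in 6 libraries, 3 per label. The deposited table holds a value for each gene in each library. It is taken to be FPKM, since Cufflinks, which gives that unit, stands beside TopHat 1.3.2 in the tool list per the submitters' processing notes and fractional values occur. Genome build, annotation and scaling: not given in the sources used here. It also gives the authors' p-value and q-value, both 1 for a gene the authors did not test. The extraction protocol in the labels speaks of shoot tips. Fruits, the tissue of the sample labels, are taken as the source here. Of 34727 rows, 4 held no values.

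Read totals are unknown. Depth relative to sibling replicate 1 is the commonest ratio of a gene's values in 2 libraries, among genes at 0.2 to 3 FPKM. The number of libraries limits the precision. P-values measure the spread between these libraries.

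The test between labels was that of limma 3.58.1 (R 4.3.3), with a prior variance following the mean, on log2(FPKM + 1), which understates the change of low genes. The test was first tried on simulated data. A fold in linear terms is a ratio of group means, given only where each value is at least 0.1 FPKM. Named genes were SlZFP2, every called member, the largest uncalled differences without overlap, the highest members, those at or near 0 in 1 group alone, the authors' further calls, the highest of each role, Hair and called genes of the pathway lists. Genes named for a shared match, a name class or a co-repressor role were added after their values were seen. Roles came from words of the description. No member fell under ribosome and translation or under DnaJ chaperones. Members and lists were chosen with earlier results of these data known. The table gives no gene symbols, and those used here are known ones recalled for these identifiers. The supplied reference gene table, of another assembly, was not used, so no coordinates are given. Alternatives were other pseudocounts, filters, scalings, thresholds, library weights, the authors' q, a replicate block and each library left out.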

Additional observations from a re-analysis of the deposited data

How the results depend on the processing

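Of the C2H2 genes, 5 were called, 4 higher and 1 lower. With each library left out in turn the count was 1 to 3, with 1 to 2 higher and 0 to 1 lower, and all genes called numbered 706 to 1219 against 1585. Such fits have fewer samples. Without the filter 3 were called, 2 of them higher, and the 1 lower call was Solyc03g115450 in place of Solyc02g062940. The single lower call was lost (0) with 5 added before the logarithm, with a mean of at least 10 FPKM, which removes that gene, with the replicate block and at an adjusted p of 0.01. At a threshold of 0.1, 9 were called, 7 higher and 2 lower, and 2723 over all genes. At 0.01, 1 was called, higher, and 410 over all genes. The authors' deposited q calls 2722 of all genes. Replicate numbers did not pair the libraries: same-numbered libraries had correlations of deviations of 0.00397, -0.00806 and -0.0105. With the number as a block 3 members and 894 of all genes were called, Solyc06g068390 gaining a call (adjusted p = 0.0451) and Solyc04g077980, Solyc09g007550 and Solyc02g062940 losing theirs (0.0825, 0.0837 and 0.086). SlZFP2 stayed uncalled and above 0 in every alternative run, with log2 fold changes of 1.02 to 3.18. No value for SlZFP2 came from the authors' q, since it was not tested there, nor from the filter at a mean of at least 10 FPKM. For 29 other named genes under these alternatives, 422 of 482 results kept direction and call, 35 lost the call and 10 gained it. Only the 5 called members could lose a call, so the results kept are mostly those of uncalled genes. All 35 losses fell on called members other than Solyc01g107170. Direction turned for 9 uncalled genes, and the cause was not tested. In EMBRYONIC FLOWER 2 it was 0.21 for the log2 ratio of means used beside the authors' q, and in Solyc03g112920 it was 0.09 with 5 added. With a library left out, log2 fold changes spanned -1.64 to 0.77 in EMBRYONIC FLOWER 2 (Solyc03g093640), -0.92 to 0.96 in Solyc03g112920, -0.01 to 0.69 in Solyc02g081620, -0.68 to 0.00 in Solyc06g008860, -0.66 to 0.04 in Solyc06g075250, -0.16 to 0.38 in Solyc06g076820, -0.23 to 0.36 in Solyc07g006880, -0.23 to 0.04 in Solyc09g008470 and -0.08 to 0.24 in Solyc09g013120. Depth was not tested as a limit.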

Other observations

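The identifiers number loci along each chromosome, which allows neighbours within the family to be counted. A neighbour within 20 locus numbers was present for 21 of the 125 members. Of these, 11 were listed at 0 in every library, 5 were tested and 0 were called by limma. Over the whole table, 35.6% of genes were listed at 0 and 10.1% of tested genes were called. Neighbours were not counted for other genes. Of the 104 members without a neighbour in the family, 28 were listed at 0 in every library and 55 were tested. A run of 5 C2H2 genes of unknown function on chromosome 2 ends with Solyc02g069000. Of that run Solyc02g068990 had values, at 8.23, 12.3 and near 0 FPKM in labelled line 207 and near 0 in the labelled siblings, and the other 4 were listed at 0.

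Among the members, the version suffix of the identifier went with the level class. Shares by suffix over all genes were not computed, so this is not read as a trait of the family. Of 77 members with the suffix 1, 37 were listed at 0 in every library and 24 were tested, and of 48 with the suffix 2, 2 were listed at 0 and 36 were tested.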
